A study of Homo sapiens with 6 samples.

Results

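Genes of the unfolded protein response of the endoplasmic reticulum (ER), together with cytosolic and mitochondrial chaperones, were followed in the human prostate carcinoma line Du145 after knockdown of TSC2. The 36 genes were chosen by symbol, and 35 of them had a probe set naming that gene alone, out of 18417 genes measured on the arrays. PDIA3 shares its probe sets with a pseudogene and has no value here. Of the 35 genes, 26 act in or at the ER and 9 are cytosolic or mitochondrial chaperones or their regulators. Total RNA was hybridised to 6 arrays, 2 in each of 3 groups. The control cells are described in the labels only as control, the shTSC2 cells had been infected with lentivirus to knock down TSC2, and the shTSC2-adapted cells are called adapted from the knockdown, without a statement of what the adaptation was. All 3 groups were grown at 1% oxygen in high-glucose medium with 10% serum, and were harvested after hypoxia of 24 h, so the arrays hold no sample at normal oxygen. The labels do not say whether control cells received a virus, how many hairpins were used or whether the pair of arrays in a group stems from separate cultures. Every p-value is thus a measure of the spread among these 6 arrays alone, and that spread may be technical.

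Proteins that enter the ER are folded there by chaperones and disulphide isomerases, and those that fail are sent back to the cytosol for degradation (ER-associated degradation, ERAD). When unfolded proteins accumulate, the membrane sensors ATF6, IRE1 (gene ERN1) and PERK (gene EIF2AK3) raise the transcription of this machinery, the first by release of its own cytosolic part and the second by splicing XBP1 mRNA, while PERK slows translation. In the cytosol the heat shock factor HSF1 plays the corresponding part for HSP70 and HSP90 chaperones. TSC2 restrains the growth kinase mTORC1, which drives protein synthesis, and loss of the TSC complex is known to place a load on the ER.

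Short DNA elements in the promoters of these genes are shown here. In the results below, genes with the same element differ in whether their change reached the significance threshold. Differences between such genes were not tested. Promoter windows of 300 bases, from 250 before to 50 after each annotated start, were taken from RefSeq (GRCh38.p14) and held 32 of the 36 genes. PDIA3, DERL1, DERL3 and HSF1 were not matched. Both strands were searched for the ER stress response element (ERSE, CCAAT and CCACG separated by any 9 bases), through which ATF6 acts together with the factor NF-Y, for ERSE-II (ATTGG and CCACG separated by any 1 base), for the unfolded protein response element (UPRE, TGACGTGG) and for the heat shock element (HSE, GAA, TTC and GAA with any 2 bases between neighbours). An exact ERSE stood in the windows of 7 of 24 ER genes (29.2%), 0 of 8 cytosolic and mitochondrial genes and 25 of 27305 genes in the whole table (0.0916%). Capitals mark the fixed letters, and each match is written in the direction of the element.
HSPA5, chr9:125241391-125241409, minus strand: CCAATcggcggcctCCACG
HSP90B1, chr12:103930216-103930234, plus strand: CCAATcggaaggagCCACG
HSP90B1, chr12:103930321-103930339, minus strand: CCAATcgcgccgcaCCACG
CALR, chr19:12938384-12938402, minus strand: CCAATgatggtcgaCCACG
CANX, chr5:179698778-179698796, plus strand: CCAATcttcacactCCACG
CRELD2, chr22:49918554-49918572, minus strand: CCAATccgagttcgCCACG
PDIA6, chr2:10812853-10812871, minus strand: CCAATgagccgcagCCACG
XBP1, chr22:28800603-28800621, minus strand: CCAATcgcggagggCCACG

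The CANX match lies in the windows of 3 of its start sites. ERSE-II stood in 3 of 24 ER genes (12.5%), 0 of 8 others and 19 of 27305 genes in all (0.0696%), with 2 matches in HYOU1. A UPRE was found in HYOU1 alone among the members, where it overlaps an ERSE-II, and in 253 genes of the table (0.927%).
HYOU1, chr11:119057380-119057390, plus strand: ATTGGaCCACG
HYOU1, chr11:119057274-119057284, plus strand: ATTGGaCCACG
SDF2L1, chr22:21642114-21642124, minus strand: ATTGGtCCACG
HERPUD1, chr16:56932025-56932035, plus strand: ATTGGgCCACG

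An HSE was matched in 4 of 8 cytosolic and mitochondrial genes (50%), in 0 of 24 ER genes and in 166 of 27305 genes in all (0.608%). The pair of matches in HSPD1 overlaps.
HSPA8, chr11:123062354-123062366, minus strand: GAAagTTCcaGAA
HSPA8, chr11:123062179-123062191, plus strand: GAAccTTCcaGAA
HSP90AA1, chr14:102087120-102087132, plus strand: GAAccTTCcgGAA
DNAJA1, chr9:33025276-33025288, plus strand: GAActTTCcaGAA
HSPD1, chr2:197500073-197500085, plus strand: GAActTTCcaGAA
HSPD1, chr2:197500068-197500080, minus strand: GAAagTTCtgGAA

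The 250 bases before the start of 3 genes show the elements in place, with the letters of every match in capitals. HSPA5 encodes the ER HSP70 chaperone BiP, HYOU1 the large ER HSP70 relative and HSPA8 the main constitutive HSP70 of the cytosol.
HSPA5, chr9:125241344-125241593, minus strand: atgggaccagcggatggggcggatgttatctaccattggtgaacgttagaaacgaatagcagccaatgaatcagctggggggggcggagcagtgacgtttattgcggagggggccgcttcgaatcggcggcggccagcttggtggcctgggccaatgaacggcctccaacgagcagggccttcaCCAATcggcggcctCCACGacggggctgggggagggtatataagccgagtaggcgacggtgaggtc
HYOU1, chr11:119057206-119057455, minus strand: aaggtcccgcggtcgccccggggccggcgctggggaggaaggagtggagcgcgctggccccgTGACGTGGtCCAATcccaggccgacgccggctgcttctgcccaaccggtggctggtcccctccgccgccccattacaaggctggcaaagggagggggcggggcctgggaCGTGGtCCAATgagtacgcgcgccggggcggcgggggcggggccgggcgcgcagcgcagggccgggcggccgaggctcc
HSPA8, chr11:123062137-123062386, minus strand: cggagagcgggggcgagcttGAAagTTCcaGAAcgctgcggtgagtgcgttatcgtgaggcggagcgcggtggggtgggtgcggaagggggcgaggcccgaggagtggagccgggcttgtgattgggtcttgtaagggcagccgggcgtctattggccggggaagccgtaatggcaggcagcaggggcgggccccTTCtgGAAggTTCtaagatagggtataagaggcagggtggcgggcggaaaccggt

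These are matches to letters and were not measured as binding sites. The genes were chosen as members of these stress responses, so the shares with a match are a description and were not tested.

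**Figure D1:**
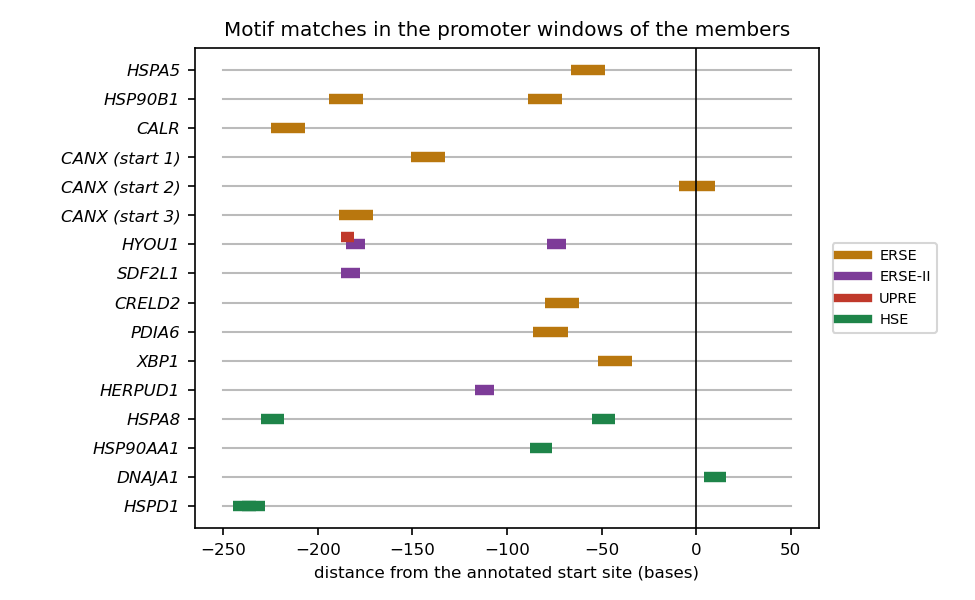
Position of exact matches to ERSE, ERSE-II, UPRE and HSE in the promoter windows of the members that hold one, as distance in bases from the annotated start site (grey line, window from 250 bases before to 50 after). ERSE and ERSE-II matches appear only in windows of ER genes and HSE matches only in windows of cytosolic and mitochondrial genes. CANX has 3 starts with the same match.

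TSC2 itself had log2 intensities of 7.52 and 7.59 in control, 6.67 and 6.55 in shTSC2 and 6.54 and 6.48 in shTSC2-adapted cells, so all 4 knockdown arrays lay below both controls. The epithelial keratins KRT8 and KRT18 lay between 11.22 and 11.50 in log2 intensity on every array, while the androgen receptor target KLK3 lay between 5.01 and 5.29. Of the 6 epithelial markers, 3 fell in shTSC2 (KRT19 -1.38, EPCAM -1.29, EGFR -1.18) and 4 were higher in shTSC2-adapted than in shTSC2 (these 3 and CDH1, 0.79 to 1.64), and 0 passed in shTSC2-adapted against control, where 2 were higher and 1 lower at an unadjusted p under 0.05 with limma. Their summed intensity was 5730 to 6010 in control, 6010 to 6210 in shTSC2 and 6700 to 6720 in shTSC2-adapted. Of 18 measured markers of fibroblasts, leukocytes and endothelial cells, 0 passed in any of the 3 comparisons with limma, and 1, 1 and 0 had an unadjusted p under 0.05. The summed intensity of the 6 leukocyte markers was 151 to 154 in control, 161 to 171 in shTSC2 and 151 to 155 in shTSC2-adapted, with PTPRC at 3.49 to 3.58 in log2. The sum of the 7 fibroblast markers was 337 to 349, 365 to 366 and 368 to 373, and that of the 5 endothelial markers 124 to 131, 126 to 132 and 124 to 128. Their part in the results below was not tested. All values are log2 intensities of one probe set per gene, changes are differences of group means with the standard error (SE, n = 2 arrays per group), and adjusted p-values are two-sided, from limma with Benjamini-Hochberg adjustment over 18417 genes. A gene is said to rise or fall where the adjusted p is under 0.05. Levels of different genes are not comparable on this array.

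The first comparison asked how these genes differ between shTSC2 and control cells in hypoxia. In shTSC2, 6 of 35 genes rose (17.1%, against 6.87% of all genes) and 4 fell (11.4%, against 13.9% of all genes), where 20.8% of all genes passed in either direction. Both shTSC2 arrays lay above both controls for 18 of the 35 and below for 8, against 32.4% and 29.6% of all genes. All 6 that rose belong to the ER: the co-chaperones DNAJB9 and DNAJB11, the lumenal protein CRELD2, the chaperone HYOU1, SDF2L1 and the ERAD factor DERL2. The 4 that fell were ATF6 and DERL1 of the ER and the cytosolic chaperones HSPA8 and DNAJB1. Quantile normalization gave 8 higher and 3 lower. With dim genes (mean under the median of all genes) left out, HSPE1 among them, 7 members rose and 5 fell. Over the genes kept by that filter, 1078 of 9209 rose and 2265 fell, larger shares than over all genes. Centring each array on its median gave 5 and 5, and also moved the split over all genes from 1266 higher and 2567 lower to 869 and 2962. Without control 1 or without control 2, 3 genes rose and 1 fell. The arrays measure RNA of whole cultures, so a change per cell and a change in the share of cells cannot be told apart.

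**Figure D2:**
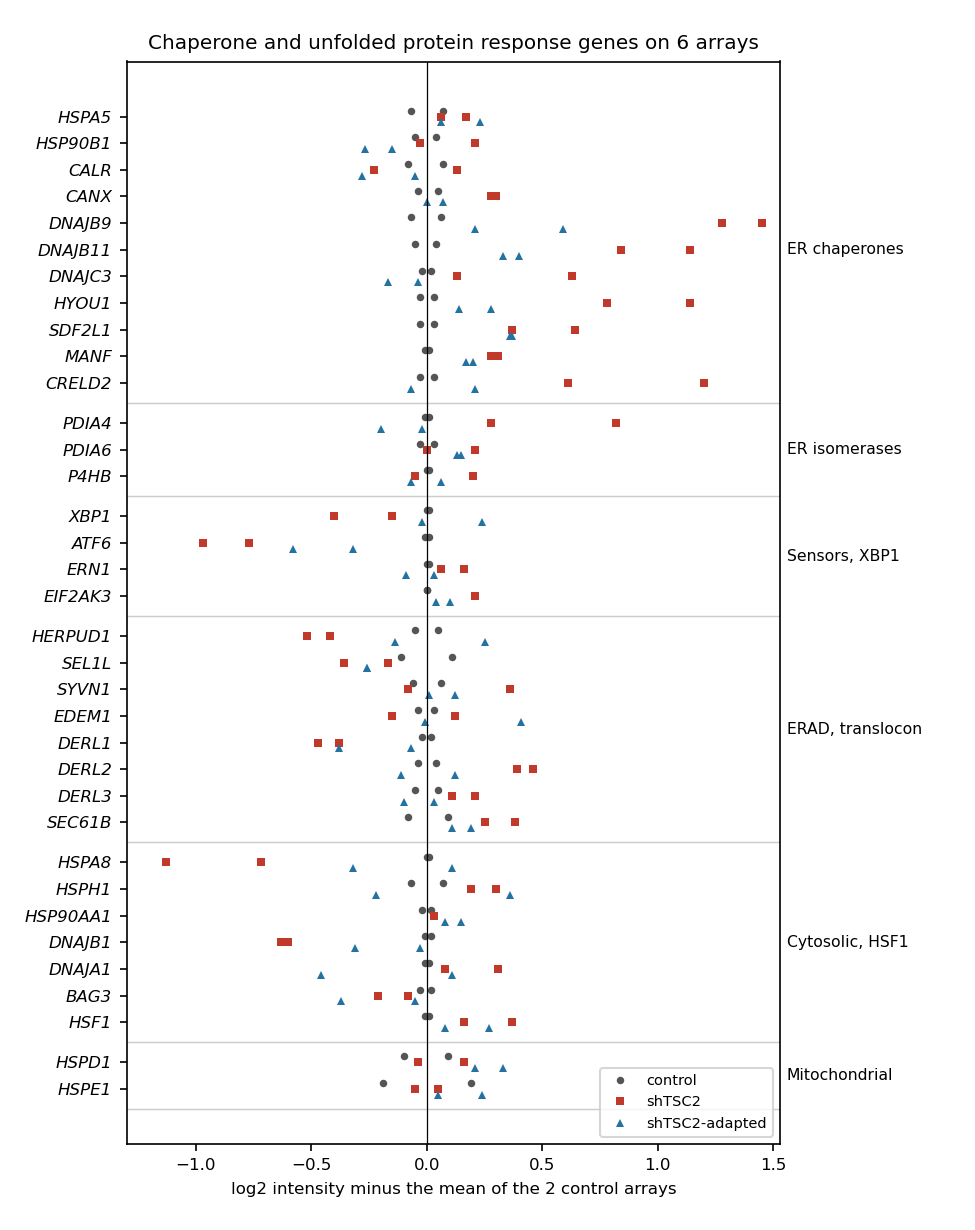
Log2 intensity of each of the 35 genes on every array, as the difference from the mean of the 2 control arrays (grey circles, control; red squares, shTSC2; blue triangles, shTSC2-adapted), with genes grouped by role. Red squares stand furthest right for DNAJB9, DNAJB11, HYOU1 and CRELD2 and furthest left for HSPA8, ATF6 and DNAJB1.

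Among the 11 genes grouped as ER chaperones and co-chaperones, 5 rose (45.5%, against 6.87% of all genes) and 0 fell (against 13.9%). Their median change was 0.38. The median over all genes was 0.03. DNAJB9, an ER co-chaperone of BiP and a classic target of spliced XBP1, had log2 intensities of 6.52 and 6.39 in control, 7.91 and 7.74 in shTSC2 and 7.05 and 6.67 in shTSC2-adapted. Its shTSC2 arrays lay above every other array, and it rose by 1.37 (SE 0.14, 2.58-fold, adjusted p = 0.00111), the largest change of the set. DNAJB11, which brings unfolded clients to BiP, stood at 9.80 and 9.71 in control, 10.90 and 10.60 in shTSC2 and 10.16 and 10.09 in shTSC2-adapted. The 3 groups did not overlap, and it rose by 1.00 (SE 0.12, 1.99-fold, adjusted p = 0.00182).

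HYOU1, which exchanges nucleotide on BiP, stood at 9.17 and 9.11 in control, 10.28 and 9.92 in shTSC2 and 9.28 and 9.42 in shTSC2-adapted. It rose by 0.96 (SE 0.13, 1.95-fold, adjusted p = 0.00303), again with 3 groups that did not overlap. CRELD2, an ER-stress-induced lumenal protein, stood at 7.43 and 7.37 in control, 8.60 and 8.01 in shTSC2 and 7.33 and 7.61 in shTSC2-adapted. It rose by 0.90 (SE 0.19, 1.87-fold, adjusted p = 0.0153), with shTSC2 1 well above shTSC2 2. SDF2L1, which keeps BiP clients soluble together with DNAJB11, stood at 6.77 and 6.71 in control, 7.38 and 7.11 in shTSC2 and 7.10 and 7.11 in shTSC2-adapted, and rose by 0.51 (SE 0.11, adjusted p = 0.0194). DNAJB9, DNAJB11 and HYOU1 passed in all 15 alternative settings, with highest adjusted p-values of 0.0229, 0.0324 and 0.0433, each without control 2. The calls of CRELD2 (adjusted p = 0.0919 without control 1 and 0.115 without control 2, range over all settings 0.00246 to 0.115) and SDF2L1 (0.107 and 0.148, range 0.00758 to 0.148) ended without either control.

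The changes of HSPA5, HSP90B1 and CALR did not pass. HSPA5, the BiP gene, stood at 11.38 and 11.52 in control, 11.62 and 11.51 in shTSC2 and 11.68 and 11.51 in shTSC2-adapted. Its shTSC2 and control arrays overlapped, and its change of 0.11 (95% interval -0.14 to 0.37) did not pass (adjusted p = 0.513). HSP90B1, the ER HSP90 also called GRP94, stood at 12.07 and 12.16, then 12.33 and 12.09, then 11.97 and 11.85 in the same order, with a change of 0.09 in shTSC2 (95% interval -0.17 to 0.36, adjusted p = 0.617). The lectin chaperone CALR stood at 10.28 and 10.43, then 10.49 and 10.13, then 10.08 and 10.31, with a change of -0.04 (95% interval -0.39 to 0.30, adjusted p = 0.867), with overlapping arrays. The membrane lectin CANX stood at 12.02 and 12.11 in control and 12.36 and 12.34 in shTSC2, which did not overlap, with a change of 0.29 (adjusted p = 0.0713). It passed with an intensity trend in the variance prior (0.0350) and with the length trend removed (0.0384; range over all settings 0.0350 to 0.350). MANF, a secreted ER stress protein, stood at 9.75 and 9.73 in control, 10.05 and 10.02 in shTSC2 and 9.91 and 9.94 in shTSC2-adapted, with a change of 0.29 just short of the threshold (adjusted p = 0.0550), which it passed with quantile normalization (0.0466; range over all settings 0.0466 to 0.270). Its 3 groups did not overlap. DNAJC3, an inhibitor of PERK and co-chaperone of BiP, stood at 7.71 and 7.67, then 8.32 and 7.82, then 7.52 and 7.65 (0.38, adjusted p = 0.147), and most of that change came from shTSC2 1. Of the ERSE-bearing genes listed above, CRELD2 rose, and HSPA5, HSP90B1, CALR, CANX, PDIA6 and XBP1 did not pass. Of the ERSE-II-bearing genes HYOU1 and SDF2L1 rose and HERPUD1 stood below control, while DNAJB9, DNAJB11 and DERL2 rose without an exact match in their windows.

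Of the 3 measured disulphide isomerases, which form and shuffle the disulphide bonds of lumenal proteins, 0 passed with limma, against 20.8% of all genes. Of these isomerases, 1 had an unadjusted p under 0.05. PDIA4 stood at 10.75 and 10.77 in control, 11.58 and 11.04 in shTSC2 and 10.56 and 10.74 in shTSC2-adapted. Both shTSC2 arrays were above all others, yet they differed from each other by more than shTSC2 2 differed from control, and the change of 0.55 (SE 0.17) had an adjusted p of 0.0623. It passed with quantile normalization (0.0407), with dim genes left out (0.0366), with an intensity trend in the variance prior (just under the threshold) and without shTSC2 2 (0.82, adjusted p = 0.00521), in a range over all settings of 0.00521 to 0.245. PDIA6 (0.11, adjusted p = 0.538) and P4HB (0.07, adjusted p = 0.719), the founding member of the family, had overlapping arrays.

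Of the sensors and their effector XBP1, ATF6 fell. ATF6 stood at 8.81 and 8.83 in control, 7.85 and 8.05 in shTSC2 and 8.24 and 8.50 in shTSC2-adapted cells, so that the 3 groups did not overlap. The fall was 0.87 on the log2 scale (-0.87, SE 0.12, adjusted p = 0.00312) and passed in all 15 alternative settings (highest adjusted p 0.0433). ATF6 spans 198 kb, the longest gene of the set. Longer genes had lower changes across 16902 protein-coding genes (Spearman rho -0.33), and with that trend removed ATF6 stood at -0.69 (adjusted p = 0.00749; range over all settings 0.00150 to 0.0433). XBP1, whose total mRNA the array reads without regard to splicing, stood at 9.41 and 9.42 in control, 9.26 and 9.01 in shTSC2 and 9.65 and 9.39 in shTSC2-adapted. Its shTSC2 arrays were the lowest, with a change of -0.28 that did not pass (adjusted p = 0.178). The PERK gene EIF2AK3 stood at 7.32 on both control arrays, 7.53 on both shTSC2 arrays and 7.42 and 7.36 in shTSC2-adapted, with a change of 0.21 that did not pass (adjusted p = 0.150). The IRE1 gene ERN1 stood at 6.72 and 6.71, then 6.77 and 6.87, then 6.62 and 6.74, with a change of 0.10 (adjusted p = 0.502). For both sensors the shTSC2 arrays were the highest.

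Of the 8 ERAD and translocon genes 1 was higher and 1 lower (12.5% each, against 6.87% and 13.9% of all genes). Their median change was 0.06. DERL2, a rhomboid-like membrane protein of the retrotranslocation complex, stood at 9.56 and 9.48 in control, 9.98 and 9.91 in shTSC2 and 9.64 and 9.41 in shTSC2-adapted, and rose by 0.42 (SE 0.11, adjusted p = 0.0326). Its paralog DERL1 stood at 9.32 and 9.28, then 8.83 and 8.92, then 8.92 and 9.23, and fell (-0.43, SE 0.12, adjusted p = 0.0469). The related gene DERL3 stood at 0.16 (adjusted p = 0.320). Neither call was firm: DERL2 did not pass without control 1 (0.136), control 2 (0.215), shTSC2 1 (0.0816) or shTSC2 2 (0.0513), with median centring (0.0562) or with the length trend removed (0.0646; range over all settings 0.0262 to 0.215). DERL1 did not pass without control 1 (0.226), control 2 (0.198), shTSC2 1 (0.118) or shTSC2 2 (0.0681), with quantile normalization (0.0844) or with an intensity trend in the variance prior (0.0538; range 0.0297 to 0.226). HERPUD1, which assembles the ERAD ligase complex, stood at 9.45 and 9.35 in control, 8.98 and 8.88 in shTSC2 and 9.65 and 9.26 in shTSC2-adapted. Its shTSC2 arrays were below all others, and the change of -0.47 narrowly missed the threshold (adjusted p = 0.0517) but passed with median centring (0.0167), with dim genes left out (0.0345) and with the length trend removed (0.0348; range over all settings 0.0167 to 0.261). The ligase subunits SYVN1 (0.14) and SEL1L (-0.27), the mannosidase-like EDEM1 (-0.01) and the translocon subunit SEC61B (0.31) did not pass (adjusted p between 0.0825 and 0.978).

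Outside the ER, 0 of the 9 cytosolic and mitochondrial genes rose (against 6.87% of all genes). Of these 9, 2 fell (22.2%, against 13.9% of all genes). HSPA8 stood at 12.64 and 12.65 in control, 11.51 and 11.92 in shTSC2 and 12.32 and 12.75 in shTSC2-adapted. It fell by 0.93 on the log2 scale (SE 0.18, adjusted p = 0.0102), to 0.525 times control, and its shTSC2 arrays lay below all others. DNAJB1, the HSP40 partner of cytosolic HSP70 and a classic HSF1 target, stood at 10.20 and 10.17 in control, 9.55 and 9.58 in shTSC2 and 9.87 and 10.15 in shTSC2-adapted, and fell by 0.62 (SE 0.11, adjusted p = 0.00906). Both calls ended without control 1 (adjusted p = 0.0770 for HSPA8 and 0.0814 for DNAJB1) or control 2 (0.0855 and 0.0779), with ranges over all settings of 0.00444 to 0.0855 and 0.00583 to 0.0814. HSP90AA1, the inducible cytosolic HSP90, stood at 11.85 and 11.81 in control and 11.86 on both shTSC2 arrays, a change of 0.03 (95% interval -0.18 to 0.24, adjusted p = 0.855). The nucleotide exchange factors HSPH1 (0.24) and BAG3 (-0.14), the co-chaperone DNAJA1 (0.20) and HSF1 itself (0.27) did not pass (adjusted p between 0.156 and 0.507). HSF1 stood at 8.01 and 8.03 in control, 8.18 and 8.39 in shTSC2 and 8.10 and 8.29 in shTSC2-adapted, so both control arrays were its lowest. The mitochondrial chaperonin pair HSPD1 and HSPE1 had overlapping arrays (0.06 and 0.00, adjusted p = 0.747 and 1.00). Of the HSE-bearing genes HSPA8 fell, and HSP90AA1, DNAJA1 and HSPD1 did not pass. HSPA8, HSP90AA1, HSPD1 and HSPE1 have processed pseudogenes, and whether their probe sets read these as well is not given in the sources used here.

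**Figure D3:**
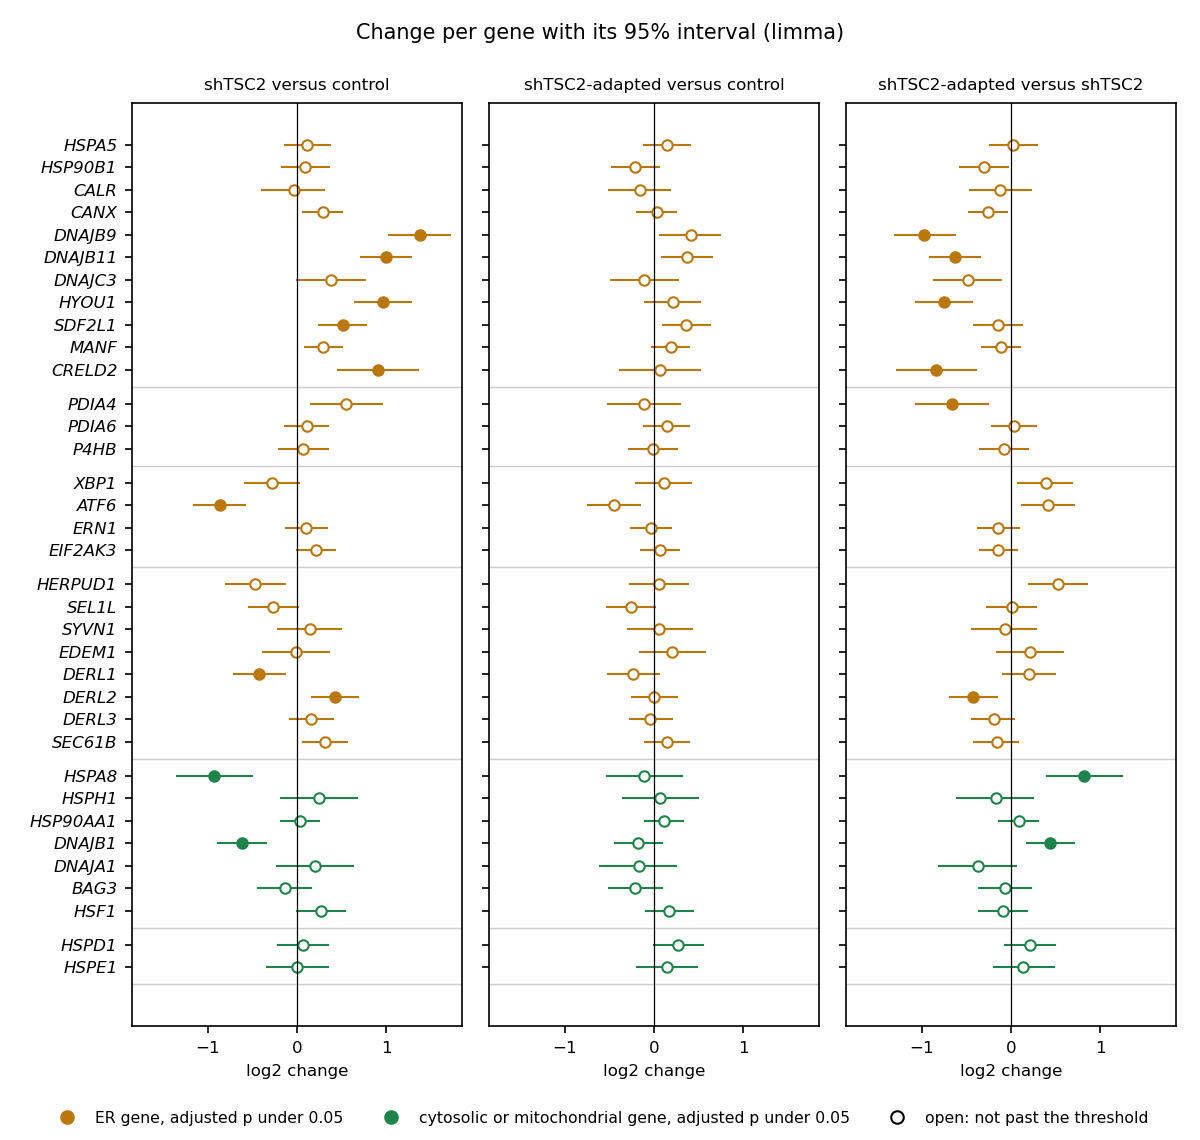
Fitted log2 change of each gene with its 95% interval in the 3 comparisons (n = 2 arrays per group), in orange for ER genes and green for cytosolic and mitochondrial genes, with filled points where the adjusted p was under 0.05. In shTSC2 versus control 8 ER and 2 cytosolic points are filled, and in shTSC2-adapted versus control none of the 35 is. In shTSC2-adapted versus shTSC2 the filled points are 6 ER genes below 0 and 2 cytosolic genes above it. Of all ER points there, filled or open, 18 lie below 0 and 8 above.

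Set side by side, the 26 ER genes had a median change of 0.15 in shTSC2 and the 9 cytosolic and mitochondrial genes one of 0.03, a gap of 0.12. Per array, the gap against the control mean was 0.25 on shTSC2 1 and 0.07 on shTSC2 2. It was 0.29 and -0.12 for shTSC2-adapted, and -0.01 and 0.01 for control. The SD of the gap between arrays of a group was 0.18. The gap in shTSC2 was 0.05 without control 1, 0.19 without control 2, 0.07 without shTSC2 1 and 0.25 without shTSC2 2, and 0.19 with the length trend removed, so it lay on both sides of that SD. Of the 26 ER genes 6 rose (23.1%) and 2 fell (7.69%), and of the 9 others 0 rose and 2 fell (22.2%). Beside these stand 6.87% higher and 13.9% lower over all genes. With dim genes left out, 1078 of 9209 were higher and 2265 lower. The difference between the compartments was not tested.

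The second comparison asked how far shTSC2-adapted cells stand from control. Of the 35 genes 0 passed with limma, against 0.0543% of all genes higher and 0.206% lower (0.261% in either direction). In the alternative settings that kept both arrays of control and of shTSC2-adapted, 0 passed as well. With the replicate block, 1 of all genes was higher and 0 lower. With so few calls over all genes, a count of 0 among the 35 does not show that the groups are alike. At an unadjusted p under 0.05, 3 of the 35 were higher and 1 lower. Both shTSC2-adapted arrays lay above both controls for 11 genes and below for 8, against 21.8% and 24.1% of all genes. DNAJB9 stood at 0.41 (95% interval 0.07 to 0.74), DNAJB11 at 0.37 (0.09 to 0.65) and SDF2L1 at 0.36 (0.10 to 0.63), with adjusted p-values of 0.30, 0.265 and 0.239. For all 3 both shTSC2-adapted arrays lay above both controls. ATF6 stood at -0.45 (95% interval -0.74 to -0.16, adjusted p = 0.183), with both arrays below control. CRELD2 (0.07) and HSPA8 (-0.11) had overlapping arrays. The ER median was 0.06 and that of the other genes 0.07, a gap of -0.01, which was 0.29 without shTSC2-adapted 2.

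The last comparison set shTSC2-adapted against shTSC2 cells. It shares the shTSC2 arrays with the first comparison, so its values stand beside those above and are no separate support. Relative to shTSC2, 2 genes were higher (5.71%, against 9.25% of all genes) and 6 lower (17.1%, against 3.24% of all genes), where 12.5% of all genes passed in either direction. Both shTSC2-adapted arrays lay above both shTSC2 arrays for 7 genes and below for 14, against 25.0% and 27.1% of all genes. Quantile normalization gave 1 higher and 7 lower, while median centring gave 2 and 5. With dim genes left out, 1608 of 9209 genes were higher and 551 lower, and HERPUD1 passed in addition. Of the genes grouped as ER chaperones and co-chaperones, DNAJB9 (-0.97, SE 0.14, adjusted p = 0.00719), CRELD2 (-0.84, SE 0.19, adjusted p = 0.0314), HYOU1 (-0.75, SE 0.13, adjusted p = 0.0136) and DNAJB11 (-0.63, SE 0.12, adjusted p = 0.0178) fell. The isomerase PDIA4 (-0.66, SE 0.17, adjusted p = 0.0478) and DERL2 (-0.42, SE 0.11, adjusted p = 0.0484) fell as well. SDF2L1, at 7.10 and 7.11 in shTSC2-adapted against 7.38 and 7.11 in shTSC2, had overlapping arrays (-0.14, 95% interval -0.41 to 0.13, adjusted p = 0.487). HSPA8 rose by 0.82 (SE 0.18, 1.77-fold, adjusted p = 0.0258) and DNAJB1 by 0.44 (SE 0.11, adjusted p = 0.0458). HERPUD1 (0.53, adjusted p = 0.0505), ATF6 (0.42, adjusted p = 0.0686) and XBP1 (0.39, adjusted p = 0.101) had shTSC2-adapted arrays above both shTSC2 arrays and did not pass. HSPA5 stood at 0.03 (95% interval -0.23 to 0.29, adjusted p = 0.895). The ER median was -0.14 and that of the other genes 0.09, a gap of -0.23, which was -0.15 with dim genes left out and -0.10 with the length trend removed.

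DNAJB9 passed in all 15 alternative settings of the last comparison (highest adjusted p 0.0319). HYOU1 did not pass without shTSC2-adapted 1 (0.0863; range over all settings 0.00531 to 0.0863). DNAJB11 did not pass without control 1 or control 2 (0.0548 each), shTSC2-adapted 1 (0.0767) or shTSC2-adapted 2 (0.0875; range 0.00803 to 0.0875). HSPA8 did not pass without control 1 or control 2 (0.0706 each), shTSC2 1 (0.0708) or shTSC2-adapted 2 (0.116; range 0.0130 to 0.116). CRELD2 did not pass without any array except shTSC2 2 (0.0531 to 0.170), and stood at -0.54 without shTSC2 1. PDIA4 likewise did not pass without any array except shTSC2 2 (0.0806 to 0.219), and stood at -0.39 without shTSC2 1. DERL2 did not pass without any single array (0.0622 to 0.189), with median centring (0.0519), with every probe set tested (0.0512), with an intensity trend in the variance prior (0.0537) or with the length trend removed (0.0860). DNAJB1 did not pass without any array except shTSC2-adapted 1 (0.0790 to 0.172), with quantile normalization (0.0509), with median centring (0.0634) or with the length trend removed (0.0609). Testing every probe set also ended the call of PDIA4 (0.0516).

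The wider machinery showed changes in both directions. Of 80 measured genes on 4 further ER lists, 15 rose and 18 fell in shTSC2 (18.8% and 22.5%), with a median of 0.04, and of 62 on 4 further cytosolic and mitochondrial lists 11 rose and 10 fell (17.7% and 16.1%), with a median of 0.07. Over all genes 6.87% rose and 13.9% fell, around a median of 0.03. With dim genes left out, 1078 of 9209 rose and 2265 fell, larger shares than over all genes. Most genes on these lists are among those kept, so the shares over all genes are a low background for them. Among 29 other ER folding factors, 7 rose and 3 fell, led by the ER co-chaperone DNAJC1 (0.76, adjusted p = 0.0201) and the isomerase PDIA5 (0.66, 0.0102). The chaperone cofactor CNPY3 (-0.89, 0.00490) and the thioredoxin-like TXNDC12 (-0.38, 0.0285) were among the 3 that fell. Among 18 other ERAD factors, 2 rose and 6 fell. The lectin ERLEC1, which binds misfolded glycoproteins, fell most (-1.35, SE 0.09, adjusted p = 0.000344), followed by the mannosidase EDEM3 (-1.10, 0.00126), whereas AUP1 (0.65, 0.00488) and FAM8A1 (0.59, 0.00633) rose. Among 17 genes of the translocon and of signal peptide processing, 4 rose and 2 fell. The subunits of the signal recognition particle receptor went opposite ways: SRPRB rose by 1.35 (SE 0.13, adjusted p = 0.000943) and SRPRA fell (-0.73, 0.00379), while the signal peptidase subunit SEC11C rose by 0.75 (0.00359) and SSR1 fell (-0.33, 0.0370).

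Of 16 other regulators of the unfolded protein response, 2 rose and 7 fell (12.5% and 43.8%, against 6.87% and 13.9% of all genes). The median was -0.45. The NF-Y genes NFYA (-1.09, adjusted p = 0.00180), NFYB (-0.46, 0.0166) and NFYC (-0.75, 0.00176) were among the 7. DDIT3 stood higher by 0.64 and did not pass (adjusted p = 0.0524). In shTSC2-adapted against control DDIT3 stood at 0.69 (adjusted p = 0.190), and its arrays lay above both controls in both knockdown groups. ATF4, the factor translated when PERK is active, fell by 1.26 on the log2 scale (SE 0.10, adjusted p = 0.000524) on its brighter probe set and stood at -0.24 on its other set (adjusted p = 0.312). Its target CHAC1, a glutathione-degrading enzyme, fell by 1.20 (adjusted p = 0.00434), whereas PPP1R15A, which reverses the translational block, rose by 0.53 (0.0465) and the membrane-bound factor CREB3 by 0.45 (0.0124). In shTSC2-adapted against shTSC2, CHAC1 and ATF4 rose (1.74 and 1.00, adjusted p = 0.00274 and 0.00249), with the other ATF4 set at 0.41 (0.139).

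Of 25 other genes of the cytosolic HSP70 and HSP90 machinery, 5 rose and 5 fell (20.0% each, against 6.87% and 13.9% of all genes). The HSP90 cochaperones FKBP4 (0.96, adjusted p = 0.00415) and CDC37 (0.65, 0.00577) rose, whereas the cochaperone PTGES3 (-0.89, 0.0162) and DNAJB4 (-0.82, 0.00167), a relative of DNAJB1, fell. HSPA1A and HSPA1B, the stress-induced HSP70 genes, share their probe sets and have no value here. Of 7 genes for small heat shock proteins and HSF4, HSPB8 alone rose (1.23, SE 0.16, adjusted p = 0.00249). Of 14 subunits of the chaperonin TRiC and of prefoldin, which fold actin and tubulin, 3 rose and 2 fell, with PFDN2 (0.64, 0.0185) and CCT8 (0.43, 0.0149) highest and PFDN1 (-1.10, 0.000596) and CCT4 (-0.59, 0.0101) lowest. Of 16 other mitochondrial chaperones and proteases, 2 rose and 3 fell, with the import cofactors GRPEL1 (0.52, 0.0240) and TIMM44 (0.41, 0.0229) higher and DNAJC19 (-0.80, 0.00899) and DNAJA3 (-0.60, 0.00664) lower. DNAJC19 stood at -0.24 on its other probe set (adjusted p = 0.115). In shTSC2-adapted against control, 0 of the 80 and 0 of the 62 genes passed with limma, against 0.261% of all genes. At an unadjusted p under 0.05, 10 of the 80 were higher and 10 lower, and 7 of the 62 were higher and 6 lower. Against shTSC2, 10 of the 80 ER genes were higher and 6 lower (12.5% and 7.5%, beside 9.25% and 3.24% of all genes). Over all genes with dim ones left out, 1608 of 9209 were higher and 551 lower. CHAC1 and ATF4, given above, were the largest of the 10, followed by EDEM3 (0.92) and ERLEC1 (0.82), and SEC11C (-0.79) and SRPRB (-0.67) were among the 6. Of the 62 others 6 were higher and 4 lower (9.68% and 6.45%), among them DNAJA3 (1.00), PFDN1 (0.75), HSPB8 (-0.99) and FKBP4 (-0.72).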

How the data were processed

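Total RNA of Du145 cells (100 ng, labelled with biotin) was hybridised to 6 arrays, 2 per group. The deposited table holds linear intensities, 1 for each probe set on each array, which the authors obtained by RMA (per the submitters' processing notes). The RMA version and the genome build were not stated in the labels. RMA normalizes between arrays, which can hide a shift common to most genes, and the deposited values still differed in their median (58.1 to 63.1). The log2 of each deposited intensity was used. Of 33297 probe sets, 19460 had 1 gene symbol, 1754 several and 12083 none here, and the set with the highest mean was kept per gene (18417 genes). P4HB alone of the 35 measured genes had another set, with a change of 0.12 in shTSC2. One linear model per gene over all 6 arrays was fitted in R 4.3.3 with limma 3.58.1 (functions lmFit, contrasts.fit and eBayes), with 3 residual degrees of freedom. The code was run on simulated independent normal values, the form that limma assumes. That run does not show how well the fit suits these arrays. The number of arrays limits the precision. The genes, lists and tests were chosen with earlier results of these data known. All 36 genes may be named, and of the other lists the 2 largest rises and 2 largest falls that passed. DDIT3 and the NF-Y genes are named in addition. Alternatives were quantile normalization, median centring, a filter on dim genes, every probe set, the mean of a gene's sets, only the 4 arrays compared, a variance trend, removal of the gene length trend, a replicate block and leaving out each array.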

Additional observations from a re-analysis of the deposited data

How the results depend on the processing

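All 10 calls in shTSC2 versus control and all 8 in shTSC2-adapted versus shTSC2 kept their direction in the 15 alternatives. Of 150 and 120 such values, 21 and 46 no longer passed. Leaving out either array of the group not compared gave the same fit as only the 4 arrays compared. The 15 alternatives are thus not all separate, and these tallies count that fit more than once. Leaving out single arrays, 3 to 7 genes were higher and 1 to 5 lower in shTSC2 versus control, and 0 to 2 higher and 1 to 6 lower in shTSC2-adapted versus shTSC2. In the latter comparison 1 was higher with quantile normalization, and 0 were higher and 2 lower with only the 4 arrays compared. The cause was not tested for quantile normalization, and the other fits have fewer samples. Leaving out single arrays, the gap of medians in shTSC2-adapted versus control was -0.12 to 0.29. The replicate numbers are shared by the groups, but the labels tie them to no batch, and deviations of same-numbered arrays correlated at -0.10, -0.19 and 0.21 between the groups. With the number as a replicate block, 6 genes were higher and 4 lower in shTSC2 versus control and 2 higher and 5 lower in shTSC2-adapted versus shTSC2, where DERL1 (adjusted p = 0.0526) and PDIA4 (0.0629) and DNAJB1 (0.0592) respectively did not pass and HERPUD1 did (0.0359 and 0.0377). Over all genes, 1266 higher and 2567 lower in shTSC2 versus control became 335 and 1149 without control 1 and 228 and 947 without control 2. In shTSC2-adapted versus control, 10 and 38 became 18 and 76 with quantile normalization, 30 and 169 with median centring, 28 and 93 with dim genes left out, 59 and 189 with only the 4 arrays compared or without either shTSC2 array, 1 and 0 with the block, and 0 and 0 without any other single array, and the length trend removed gave 11 and 57. In shTSC2-adapted versus shTSC2, 1703 and 597 became 893 and 220 with only the 4 arrays compared or without either control, 690 and 147 without shTSC2-adapted 1 and 931 and 250 without shTSC2-adapted 2. A lone array left in a group is assumed to vary like the others. Dim genes such as HSPE1, at 5.87 to 6.30 in log2 against a median of 5.91 over all values, limit what a change can show.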
